A study of Mus musculus with 16 samples.

Results

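The DNA replication and S phase genes are 40 genes listed by name for their work in copying the genome, from the subunits of the replicative helicase to the enzymes that supply deoxynucleotides. All 40 were found among the 19938 genes named in the table, each read from 1 array row, and for Pcna and Tk1, which had 2 rows, the brighter row on average was used. They were measured in N25/2, an immortalized line of embryonic mouse hypothalamic cells grown in DMEM with fetal bovine serum. Control cells were kept in medium that contained amino acids and deprived cells in medium without them. Whole-transcript Affymetrix arrays were run on 16 samples, 4 control and 4 deprived at 5 h and 1 of each at 1, 2, 3 and 16 h. All groups share this 1 line, and the labels do not say whether the media of the experiment held serum or whether the samples at 5 h were separate cultures. The p-values of the fits at 5 h thus measure sample-to-sample spread, part or all of which may be technical. The differences at 1, 2, 3 and 16 h have no replicate check. In fits that join several times, the spread also holds changes of the difference from time to time.

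Cells prepare for replication by loading the ring-shaped MCM helicase at origins with the help of Cdc6 and Cdt1, a step called licensing. When cyclin E and its kinase become active and E2F transcription factors are released from RB proteins, the helicase is joined by Cdc45 and the GINS complex, and polymerases, primase, the sliding clamp PCNA and its loader RFC follow. Many genes of this machinery are E2F targets whose transcripts peak around the entry into S phase, so their summed level in a culture is widely used as a sign of cycling cells.

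Each difference below is a log2 value, deprived minus control, and SE is its standard error from limma. In the check of the labels, all 12 genes listed for the amino acid response (Atf4, Ddit3, Asns, Trib3, Chac1, Atf3, Sesn2, Psat1, Phgdh, Vldlr, Cebpb and Slc7a11) rose at 5 h, with a median of 1.65 although Psat1 no longer passed without control array 2 (adjusted p = 0.0715) or 3 (0.0573) or deprived array 1 (0.0949), 2 (0.087) or 3 (0.0879). Of 12 housekeeping genes listed, 9 were measured, and 0 of these passed at 5 h in limma, 0 of them at an unadjusted p under 0.05. Their median was -0.02. At 16 h, 2 of the 9 were higher by at least 0.5 and 0 lower, where 9.36% and 8.99% of all genes were. Their median at 16 h was -0.06. Of the cell type markers, 3 of 12 neuronal genes had a mean level above the median of all genes (7.47), with a list median of 6.44 and Stmn2 highest at 12.25. So did 2 of 14 hypothalamic peptide genes (median 7.03, Oxt highest at 8.31), 5 of 9 neural progenitor genes (median 8.0, Vim highest at 13.7) and 8 of 10 fibroblast and mesenchyme genes (median 7.95, Acta2 highest at 13.28). Among astrocyte and oligodendrocyte genes 1 of 10 did (median 6.55), and among those of microglia, blood and endothelium 2 of 10 (median 6.06). Levels of different probes are not strictly comparable, and the files give no detection call, so absence of a marker could not be read.

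Among the arrays of 5 h, number 4 differed from the rest in both groups, and it did so in the replication genes. Control array 4 lay above the mean of the other 3 control arrays by a median of 0.32 over the 40 genes, and deprived array 4 above its group by 0.36. The same medians over all genes were -0.08 and -0.09, and over 29 genes of G2 and mitosis they were 0.44 and 0.40. Array 4 was highest in both groups for 29 of the 40 genes (72.5%, against 28.3% of all genes). With these arrays the median SD of a replication gene within a group was 0.19, and without them it was 0.06. Results at 5 h are therefore also given without both arrays numbered 4 and with the replicate number as a block, which compares arrays of the same number.

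After 5 h without amino acids few replication genes passed in the fit without the block, where the arrays numbered 4 widened the spread. Not passing there does not show that a gene was unchanged. Of the 40 genes, Cdt1 rose, Ccne1 and Rrm2 fell, and 37 did not pass an adjusted p of 0.05 (limma, Benjamini-Hochberg over all genes); 4.11% of all genes passed, 2.41% higher and 1.7% lower. By sign alone 18 genes were higher and 22 lower, with a median difference of -0.02 against -0.01 over all genes. With the replicate block 12 of the 40 passed, 8 higher and 4 lower, in a fit that called 18.2% of all genes (8.22% higher and 10% lower). Without both arrays numbered 4, 9 passed, 5 higher and 4 lower, where 13.5% of all genes did (6.34% higher and 7.17% lower). All 9 were among the 12, and Cdt1, Ccne1 and Rrm2 were in each set. In whole cultures, a change in the share of cells in S phase and a change in a gene's RNA per cell cannot be told apart.

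**Figure D1:**
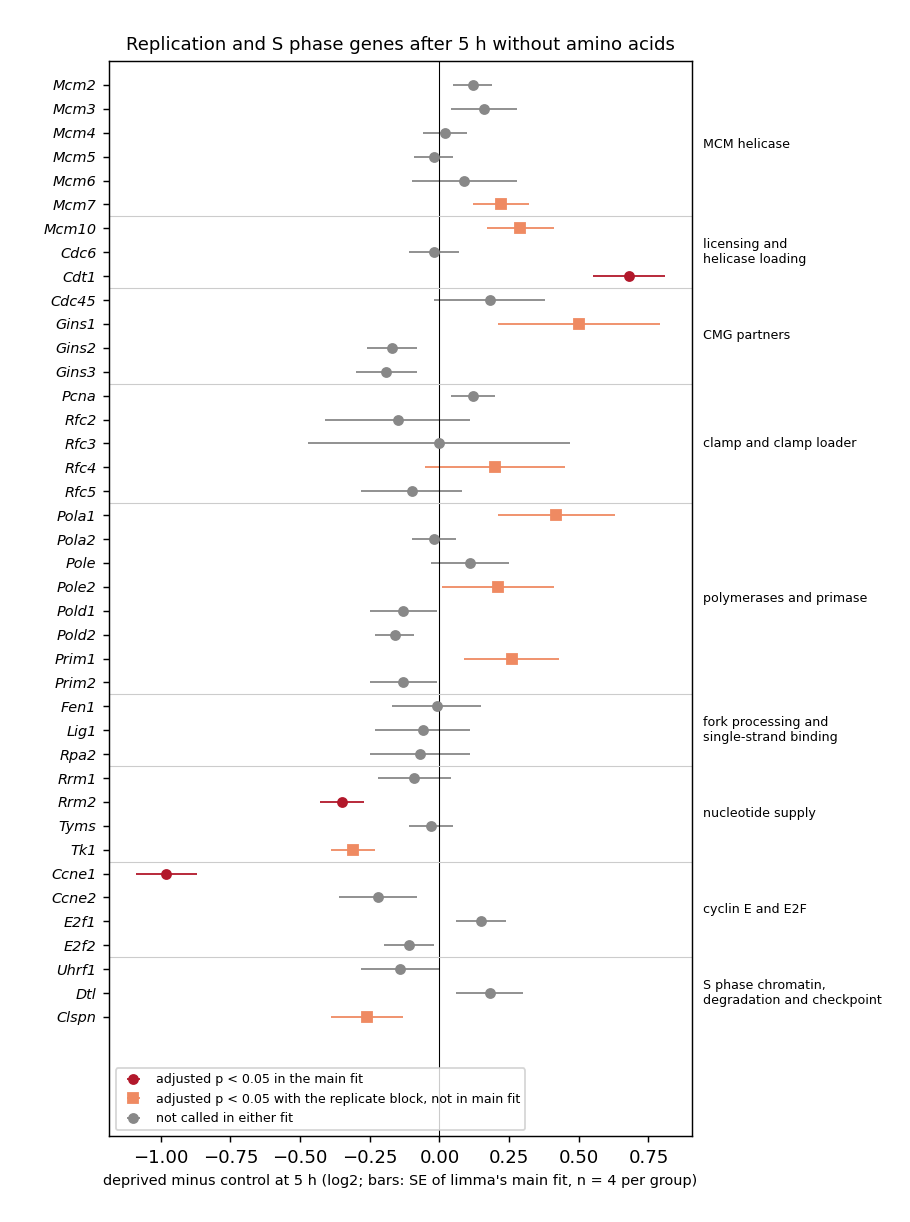
Difference of each of the 40 genes at 5 h (deprived minus control, log2, with bars for the SE of the fit without a block, n = 4 arrays per group), ordered by role. Cdt1 (0.68), Ccne1 (-0.98) and Rrm2 (-0.35) passed in the fit without the block, and squares mark the 9 further genes that passed in the fit with it, both on all 8 arrays.

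Ccne1, which codes for cyclin E1, the cyclin that drives entry into S phase, had the largest fall of the 40. Its levels on the 4 control arrays at 5 h were 9.72, 9.76, 9.63 and 9.44, and on the 4 deprived arrays 8.71, 8.78, 8.75 and 8.38. Every deprived array lay below every control array. The means were 9.64 (SD 0.14, n = 4) and 8.66 (SD 0.18, n = 4), a 1.97-fold lower level in deprived cells. Ccne1 fell by 0.98 (SE 0.11), with an adjusted p of 0.00123 in limma. Over all settings tried its adjusted p stayed at or below 0.00824.

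The same direction appeared on the other arrays. Control levels of Ccne1 at 1, 2, 3 and 16 h were 9.57, 9.76, 10.17 and 9.16, and deprived levels were 9.35, 9.35, 9.55 and 8.30. Deprived cells were lower at each time, by differences of -0.22, -0.41, -0.63 and -0.86 in order of time. The mean over these 4 times was -0.53 (SE 0.11), unadjusted p = 0.00314 and adjusted p = 0.554 in limma. With all 16 arrays and time as a factor, the difference was -0.76 (SE 0.10, adjusted p = 0.00114 in limma). Times count there by their arrays, so 5 h, with 4 arrays per group against 1, weighs most. That fit called 1 of the 40 genes higher (Cdt1) and 2 lower (Ccne1 and Tk1), and 5.2% of all genes, 2.9% higher and 2.3% lower. The difference at 5 h minus that at the other times was -0.45 (SE 0.17), with an unadjusted p of 0.018 and an adjusted p of 1 in limma. Ccne2, which codes for cyclin E2, the paralogue of cyclin E1, differed by -0.22 (SE 0.14) at 5 h without passing, and its differences at 1, 2, 3 and 16 h had both signs (0.09, 0.17, -0.33 and 0.07).

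Cdt1 was the only gene of the 40 to pass as higher at 5 h without the block. This licensing factor brings the MCM helicase to origins, and its protein is destroyed once S phase begins. Control levels at 5 h were 10.18, 10.02, 9.99 and 10.39, and deprived levels 10.86, 10.78, 10.57 and 11.10. Every deprived array lay above every control array. The mean went from 10.14 (SD 0.18, n = 4) to 10.83 (SD 0.22, n = 4), a 1.61-fold rise. The difference was 0.68 (SE 0.13, adjusted p = 0.0168 in limma), and it was positive in each of the 4 same-number pairs (0.68, 0.76, 0.58 and 0.71). The adjusted p rose above the threshold when control array 1 (0.0541), 2 (0.0669) or 3 (0.0571) or deprived array 1 (0.0656) or 2 (0.0533) was left out. With the replicate block it was 2.84e-05, and without both arrays numbered 4 it was 0.000519.

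Cdt1 was also higher on the deprived array of each other time. Control levels at 1, 2, 3 and 16 h were 10.08, 10.05, 10.44 and 10.41, and deprived levels 10.27, 10.48, 11.07 and 11.12. The differences were 0.19, 0.44, 0.62 and 0.71 in order of time. Their mean was 0.49 (SE 0.10, unadjusted p = 0.0025, adjusted p = 0.537 in limma). In the fit of all 16 arrays, where 5 h weighs most, the difference was 0.59 (SE 0.09, adjusted p = 0.00237 in limma). Of the 40 genes, 5 were above 0 at all 5 times (Mcm6, Mcm10, Pole, Cdt1 and E2f1) and 2 were below (Ccne1 and Tk1), against 6.05% and 6.71% of all genes.

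Rrm2, which codes for the regulatory subunit of ribonucleotide reductase, the enzyme that makes deoxynucleotides, fell by a smaller amount at 5 h. Control levels were 10.78, 10.73, 10.58 and 10.75, and deprived levels 10.35, 10.48, 10.31 and 10.31. The groups did not overlap. The mean went from 10.71 (SD 0.09, n = 4) to 10.36 (SD 0.08, n = 4), a difference of -0.35 (SE 0.08, adjusted p = 0.0392 in limma). The call held only narrowly. It was lost with arrays centred on their medians (0.0646) and on leaving out any array but control 3 (0.0403), with adjusted p of 0.129, 0.132 and 0.0561 without control 1, 2 or 4 and of 0.133, 0.0579, 0.139 and 0.0634 without deprived 1, 2, 3 or 4. With the replicate block it was 0.00299, and without both arrays numbered 4 it was 0.0207.

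Of the other times, only 1 h shared the direction that Rrm2 had at 5 h. Its control levels at 1, 2, 3 and 16 h were 10.39, 10.37, 10.95 and 10.50, and its deprived levels 9.92, 10.46, 10.95 and 10.88. The differences were -0.47, 0.09, 0.01 and 0.37. The difference at 5 h minus the mean of the other times was -0.35 (SE 0.15, unadjusted p = 0.0412, adjusted p = 1 in limma). That interaction called 0 of all genes, with 2.43% at an unadjusted p under 0.05, and 0 of the 40, with 3 of them at an unadjusted p under 0.05 (Ccne1, Rrm2 and E2f2).

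The promoters of Ccne1, Cdt1 and Rrm2 are shown because these 3 genes passed at 5 h in the fit without the block. E2F-type motifs are also the element for which replication promoters are known. The sequences are from RefSeq (build GRCm38.p6), 250 bases before to 50 after the start, 5′ to 3′ on the strand of the gene. Capitals mark an E2F-type motif in Cdt1 and a CCAAT box in Rrm2; the window of Ccne1 held neither. Ccne1 is at chr7:38107441-38107740 (minus strand), Cdt1 at chr8:122567765-122568064 (plus strand) and Rrm2 at chr12:24708004-24708303 (plus strand), the last chosen for printing after its values were seen.
Ccne1: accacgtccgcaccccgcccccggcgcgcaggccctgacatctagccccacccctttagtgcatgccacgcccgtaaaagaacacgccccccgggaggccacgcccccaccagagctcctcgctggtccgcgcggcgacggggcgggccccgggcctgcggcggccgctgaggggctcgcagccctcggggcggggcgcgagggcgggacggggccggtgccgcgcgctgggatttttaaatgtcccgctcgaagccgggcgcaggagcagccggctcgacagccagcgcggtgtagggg
Cdt1: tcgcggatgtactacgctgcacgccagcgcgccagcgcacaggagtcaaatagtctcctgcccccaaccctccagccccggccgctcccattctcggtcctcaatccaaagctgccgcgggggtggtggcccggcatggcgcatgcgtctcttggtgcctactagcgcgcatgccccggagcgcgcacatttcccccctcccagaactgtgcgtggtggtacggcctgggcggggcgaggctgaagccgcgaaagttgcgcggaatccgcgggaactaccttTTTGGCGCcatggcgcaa
Rrm2: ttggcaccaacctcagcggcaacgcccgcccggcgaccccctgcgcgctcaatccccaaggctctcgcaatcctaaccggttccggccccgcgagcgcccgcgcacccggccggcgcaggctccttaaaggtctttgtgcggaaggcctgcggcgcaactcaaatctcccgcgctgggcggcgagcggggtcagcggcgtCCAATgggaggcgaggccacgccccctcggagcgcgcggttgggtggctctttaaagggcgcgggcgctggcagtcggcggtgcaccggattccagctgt

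The motif search used exact letters on both strands. The E2F-type motif was TTTCCCGC, TTTCGCGC, TTTGCCGC or TTTGGCGC, the CCAAT box CCAAT and the cell-cycle element CHR TTTGAA, and none of these letter strings contains another. RefSeq promoters were listed for 33 of the 40 genes, with 40 promoters in all; the other 7 were Mcm4, Rfc2, Pole, Prim2, Gins1, Gins2 and Ccne2. An E2F-type motif lay in 16 of the 40 promoters (40%), against 2.26% of 32851 promoters of the same length. CCAAT was in 57.5% against 37.4%, and TTTGAA in 15% against 17.9%. Of the 22 E2F-type matches, 10 lay after the start, 4 within 100 bases before it and 8 farther upstream. Matches on opposite strands overlapped in Mcm6 (110 and 106 bases before the start) and in Mcm5 (153 and 149), and each was counted. The number of separate stretches is thus smaller. The 16 genes with a match had a median difference of -0.01 at 5 h and 0.42 at 16 h, and the 17 listed genes without a match had -0.02 and 0.27. A match is a string of letters and not a measured site.

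Among the helicase subunits, which unwind the double strand, differences at 5 h ran from -0.02 (Mcm5) to 0.22 (Mcm7), and 0 of 6 passed without the block in limma, 0 of them at an unadjusted p under 0.05. Mcm7 passed with the replicate block (0.22, SE 0.10 without it; adjusted p 0.369 without the block and 0.0316 with it) and without both arrays numbered 4 (0.0301). At 16 h all 6 were above 0, from 0.01 (Mcm6) to 0.48 (Mcm3), where 43.8% of all genes were above 0. Mcm10, which binds the helicase as forks start, differed by 0.29 (SE 0.12) at 5 h, with adjusted p of 0.311 without the block, 0.00842 with it and 0.0399 without both arrays numbered 4. Cdc6, which loads the helicase together with Cdt1, differed by -0.02 (SE 0.09) at 5 h.

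The partners that turn the helicase into a working engine split. Gins1, a subunit of the GINS complex, had control levels of 7.93, 7.83, 7.77 and 8.88 at 5 h and deprived levels of 8.30, 8.39, 8.40 and 9.32. Array 4 was far above the other 3 in both groups, so the groups overlapped although each deprived array lay above the control array of its number. The difference was 0.50 (SE 0.29), with adjusted p of 0.569 without the block, 0.000358 with it and 0.000655 without both arrays numbered 4 (limma). Gins2 (-0.17, SE 0.09) and Gins3 (-0.19, SE 0.11), subunits of the same complex, and Cdc45 (0.18, SE 0.20) passed in none of these 3 fits.

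The polymerases behaved unevenly too. Pola1, the catalytic subunit of the polymerase that starts strands, had control levels of 8.73, 8.84, 8.72 and 9.53 and deprived levels of 9.13, 9.18, 9.31 and 9.85. Each deprived array was above the control array of its number. Its difference was 0.42 (SE 0.21), with adjusted p of 0.462 without the block, 0.00126 with it and 0.00221 without both arrays numbered 4 (limma). Prim1, the catalytic primase subunit (0.26, SE 0.17), and Pole2, an accessory subunit of the leading-strand polymerase (0.21, SE 0.20), passed only with the block (0.0196 and 0.0384). Pola2, Pole, Pold1, Pold2 and Prim2 ran from -0.16 to 0.11 and passed in none of these fits, although Pold2 did not overlap between groups. Absence of overlap was seen in 1 of the 40 genes upward and 4 downward (Ccne1, Rrm2, Tk1 and Pold2), against 5.15% and 5.38% of all genes.

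Clamp genes differed little. Pcna, the sliding clamp, differed by 0.12 (SE 0.08), and its 2 rows gave the same values. Of the loader subunits Rfc2, Rfc3, Rfc4 and Rfc5, which place the clamp on DNA, Rfc4 (0.20, SE 0.25) passed with the block alone (adjusted p 0.0386), and Rfc3 was the least precise of the 40 (0.00, SE 0.47). Fen1 and Lig1, which process and join Okazaki fragments, and Rpa2, which covers single strands, ran from -0.07 to -0.01 with 0 of 3 passing in any of these limma fits and 0 at an unadjusted p under 0.05 without the block.

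In nucleotide supply all 4 genes were below 0 at 5 h, as were 11043 of all 19938 genes. Tk1, thymidine kinase of the salvage route, had control levels of 10.21, 10.24, 10.24 and 10.36 and deprived levels of 10.08, 9.87, 9.93 and 9.92. The groups did not overlap. The difference was -0.31 (SE 0.08), with an adjusted p of 0.0576 without the block, 0.00777 with it and 0.0319 without both arrays numbered 4 (limma). Its other row gave -0.48 at 5 h, and the mean of both rows gave -0.40 with an adjusted p of 0.0343. Tk1 was also lower on the deprived array of every other time, with differences of -0.08, -0.11, -0.04 and -0.35. In the fit of all 16 arrays, where 5 h weighs most, its difference was -0.23 (SE 0.06, adjusted p = 0.0326 in limma). Rrm1, the large subunit of ribonucleotide reductase (-0.09, SE 0.13), and Tyms, thymidylate synthase (-0.03, SE 0.08), passed in none of the 3 fits at 5 h.

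E2f1 and E2f2, activators of S phase genes, differed by 0.15 (SE 0.09) and -0.11 (SE 0.09) at 5 h. Clspn, the adaptor of the replication checkpoint kinase, differed by -0.26 (SE 0.13), with adjusted p of 0.457 without the block, 0.0104 with it and 0.0487 without both arrays numbered 4 (limma). Dtl, the substrate receptor of the ligase that removes Cdt1 protein in S phase, differed by 0.18 (SE 0.12), and Uhrf1, which keeps DNA methylation through replication, by -0.14 (SE 0.14). Neither passed in any of the 3 fits.

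**Figure D2:**
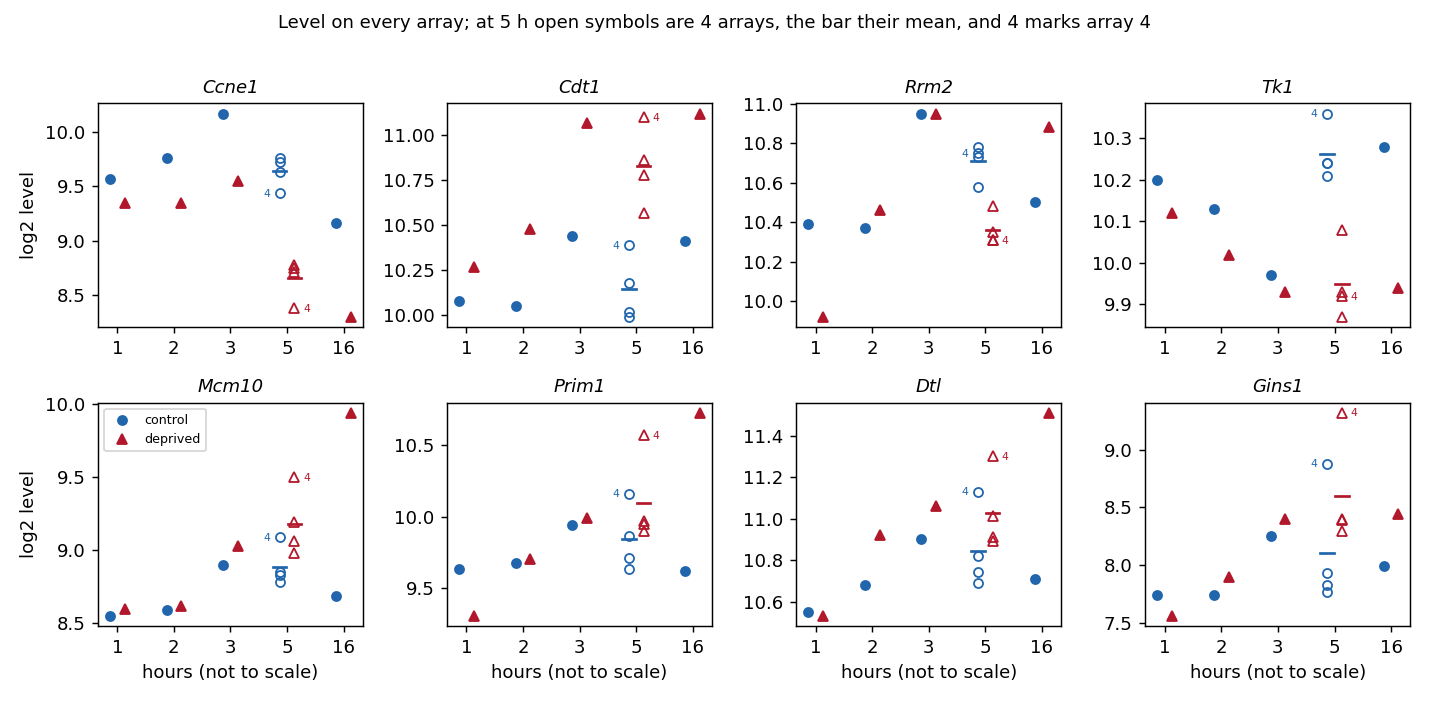
Log2 level of Ccne1, Cdt1, Rrm2, Tk1, Mcm10, Prim1, Dtl and Gins1 on every array, by hours and group (open symbols and a bar for the mean at 5 h, with array 4 marked). Deprived Ccne1 lies below control at every time (8.30 against 9.16 at 16 h), and the 16 h deprived array is the highest of all 16 for Cdt1 (11.12), Mcm10 (9.94) and Prim1 (10.73).

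Before 5 h the differences of the replication genes lay around 0. The median over the 40 genes was -0.03 at 1 h, 0.06 at 2 h and 0.04 at 3 h, against 0.01, -0.01 and 0.02 over all genes. Of the 40, 15, 31 and 26 were above 0 at these times, where 53%, 48.2% and 54.3% of all genes were. At 1 and 2 h, 0 of the 40 differed by 0.5 or more (1.41-fold), where 0.226% of all genes were higher by that much and 0.557% lower at 1 h, and 0.787% and 0.978% at 2 h. At 3 h Cdt1 was higher by at least 0.5 and Ccne1 lower, where 0.843% and 1.1% of all genes were. None reached a difference of 1 (2-fold) at 3 h, as 0.0903% of all genes did upward and 0.0451% downward. In limma's test of the mean over 1, 2, 3 and 16 h, 0 of all genes passed and 6.24% had an unadjusted p under 0.05, 4 of the 40 among them.

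The levels themselves differed between arrays of different times in both groups. On the 1 h control array 28 of the 40 genes lay below the range of the 4 control arrays of 5 h, and on the 2 h array 26 did. On the 3 h control array 25 lay inside that range and on the 16 h control array 29. Deprived cells began alike, with 27 genes below the deprived 5 h range at 1 h and 22 at 2 h. At 16 h they differed, with 18 genes above the range of the 4 deprived 5 h arrays and 2 below. These counts were not made over all genes, so whether they are particular to the 40 was not tested. With 1 array per group at these times, time and array cannot be told apart. The mean level of the 40 genes was 9.92 on the control and 9.86 on the deprived array at 1 h, and 10.13 and 10.37 at 16 h; at 5 h it ran from 10.03 to 10.43 in control and from 10.05 to 10.42 in deprived cells, with array 4 highest in both.

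At 16 h most replication genes were higher on the deprived array than on the control array. The median difference was 0.28, against -0.04 over all genes, and 31 of the 40 were above 0, where 43.8% of all genes were. Of the 40, 8 were higher by at least 0.5 (Mcm10, Prim1, Dtl, Cdt1, Cdc6, Cdc45, Rfc4 and Fen1) and 2 were lower (Ccne1 and Gins2), where 9.36% and 8.99% of all genes were. A difference of at least 1 was reached by 2 upward and 0 downward, against 1.96% and 2.97% of all genes. For 13 genes the 16 h deprived array was the highest of all 16 arrays, as it was for 12.8% of all genes. In 14 genes the difference was below 0 at 5 h and above 0 at 16 h, against 17.1% of all genes, and these differences were not tested. With arrays centred on their medians 15 genes were higher and 1 lower by at least 0.5, where 12% and 7.31% of all genes were.

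Mcm10 differed most at 16 h, with a level of 8.69 on the control and 9.94 on the deprived array, a 2.37-fold difference. On the 8 arrays of 5 h it had run from 8.78 to 9.50, so the 16 h deprived array stood above all of them. Prim1 stood at 9.62 on the control and 10.73 on the deprived array (2.16-fold), where its highest value at 5 h was 10.57. Dtl stood at 10.71 and 11.51 (1.74-fold), and its highest value at 5 h was 11.30. Cdc6 stood at 8.33 and 8.90 (1.48-fold), and its highest value at 5 h was 8.69. These 4 genes were thus higher on the 16 h deprived array than on any array of 5 h.

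Cdc45 differed by 0.54 at 16 h (9.65 and 10.19), and the arrays numbered 4 at 5 h stood at 10.17 and 10.39. Gins2 went the other way, with 9.92 on the control and 9.38 on the deprived array, 1.46-fold lower. Gins1 and Gins3, of the same complex, were higher by 0.45 and 0.49. With 1 array per group these are differences between 2 samples and not tested effects of time.

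**Figure D3:**
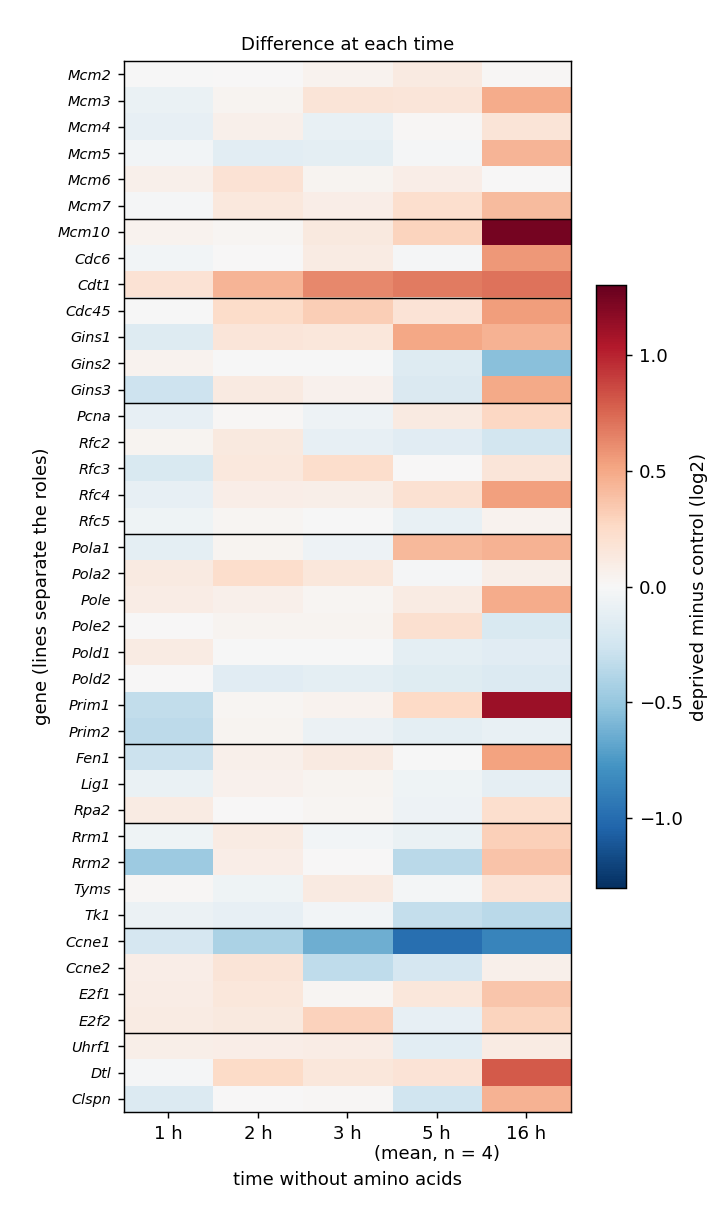
Differences of the 40 genes at 1, 2, 3, 5 and 16 h (deprived minus control, log2; 4 arrays per group at 5 h and 1 at the other times). Most genes stay near 0 up to 5 h, and 31 of 40 are above 0 at 16 h, while Ccne1 and Tk1 are below 0 at all 5 times.

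Marker genes of several cell types were also lower on the deprived array at 16 h. All 10 fibroblast and mesenchyme genes were below 0, with a list mean of 9.00 in control and 8.02 in deprived cells. Of 9 neural progenitor genes 8 were below 0 (list mean 8.68 and 8.23), as were 9 of 10 astrocyte and oligodendrocyte genes (7.26 and 6.85) and 10 of 12 neuronal genes (7.06 and 6.82). So were 9 of 14 hypothalamic peptide genes (6.86 and 6.82) and 7 of 10 genes of microglia, blood and endothelium (6.52 and 6.40). Of all 19938 genes 11199 were below 0 at 16 h, and the shares of these last lists were nearest to that. Each of these differences rests on 1 array per group. At 5 h the fibroblast list mean ran from 8.79 to 9.10 in control and from 8.69 to 8.81 in deprived cells, and the progenitor mean from 8.48 to 8.65 and from 8.39 to 8.51, with Nes, an intermediate filament gene of progenitors, lower by 1.62-fold (adjusted p = 0.00923 in limma). The part of these markers in the replication results was not tested.

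Genes around the 40 were followed in lists of their own. In origin licensing and firing, 3 of 19 genes rose at 5 h and 1 fell, where 2.41% and 1.7% of all genes did. Mtbp, a partner of Ticrr in origin firing, rose by 0.99 (SE 0.13, adjusted p = 0.00249 in limma), Recql4, a helicase needed for firing, by 0.65 (SE 0.14, adjusted p = 0.0285), and Dbf4, the activating subunit of the Cdc7 kinase, by 0.35 (SE 0.08, adjusted p = 0.0377). Orc3, a subunit of the origin recognition complex, fell by 0.39 (SE 0.08, adjusted p = 0.027). The list's median was 0.06 at 5 h and 0.57 at 16 h, when all 19 genes were above 0 and 10 were higher by at least 0.5, against 43.8% and 9.36% of all genes. Leaving out an array lost the calls of Recql4 (5 of 8 arrays: 0.0994, 0.0954 and 0.0877 without control 1, 2 or 3, and 0.1 and 0.0718 without deprived 1 or 2) and Orc3 (0.0821 and 0.0756 without control 1 or 2, and 0.0949, 0.0924 and 0.102 without deprived 1, 2 or 3). Dbf4 failed to pass whichever array was left out, with adjusted p from 0.0564 to 0.139, and Mtbp passed without each (0.000331 to 0.0143). Orc2, another subunit of that complex, had the largest difference at 16 h (1.36).

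The list of E2F, RB and cyclin regulators held 27 genes, of which 3 rose and 1 fell at 5 h, against the same shares of 2.41% and 1.7% of all genes. Myc, a growth-promoting transcription factor, rose by 1.34 (SE 0.18, adjusted p = 0.00268 in limma), from control levels of 10.52, 10.48, 10.23 and 9.65 to deprived levels of 11.69, 11.63, 11.45 and 11.47. At 16 h its difference was 2.18. Tfdp2, a dimer partner of E2F proteins, rose by 0.55 (SE 0.11, adjusted p = 0.0206), and Rb1, which restrains E2F, by 0.42 (SE 0.08, adjusted p = 0.0135). Ccnd3, a D-type cyclin, fell by 0.55 (SE 0.08, adjusted p = 0.00454). Calls of Tfdp2 were lost without control array 1 (0.0731), 2 (0.0736) or 3 (0.0627) or deprived array 1 (0.059) or 3 (0.068), and those of Rb1 without control array 2 (0.0627) or deprived array 1 (0.0559), 2 (0.052) or 3 (0.0599). Myc and Ccnd3 passed without each array. With the replicate block 9 of the 27 genes were higher and 4 lower, where 8.22% and 10% of all genes were.

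The D-type cyclins, which start the inactivation of RB proteins, differed in direction. Ccnd1 had control levels of 10.48, 10.43, 10.36 and 8.10 and deprived levels of 9.89, 9.74, 9.80 and 7.49, and Ccnd2 had 9.60, 9.54, 9.41 and 7.09 against 10.03, 9.82, 9.96 and 7.79. Array 4 was far below the others in both groups and for both genes. Each deprived array was below the control array of its number for Ccnd1 and above it for Ccnd2. Adjusted p was 0.934 and 0.975 without the block and 5.03e-05 and 0.000895 with it. Both genes were named after their values were seen.

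Fork and Okazaki fragment factors (20 genes), nucleotide synthesis (19) and S phase chromatin assembly (15) had 0 genes past the threshold at 5 h in limma (2, 5 and 2 at an unadjusted p under 0.05), and with the block 2 higher and 3 lower, 2 and 4, and 2 and 0, where 8.22% of all genes were higher and 10% lower. Their medians at 16 h were 0.29, 0.29 and 0.27. Atad5, which unloads the clamp, had the largest difference of these lists at 16 h (1.51). Replication checkpoint and repair held 22 genes, of which Chek1, the checkpoint kinase that Clspn serves, rose by 0.40 (SE 0.09, adjusted p = 0.0389 in limma). That call held only without control array 4 (0.0176) among the fits that left out 1 array, and was otherwise between 0.0622 and 0.127. The median of that list was 0.56 at 16 h, with 12 genes higher by at least 0.5 and 0 lower, against 9.36% and 8.99% of all genes.

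Inhibitors of cyclin-dependent kinases and genes of mitosis went differently. Of 7 inhibitor genes listed, 6 were measured (Cdkn1b, Cdkn1c, Cdkn2a, Cdkn2b, Cdkn2c and Cdkn2d). Cdkn1a is not among these 6, so the list does not speak for all inhibitors. Among these 6, 0 passed at 5 h in limma (2 at an unadjusted p under 0.05), and 1 was higher and 3 lower with the block (8.22% and 10% of all genes). All 6 were below 0 at 16 h (median -0.53), where 43.8% of all genes were above 0. Their differences ran from -1.32 (Cdkn2b) and -0.94 (Cdkn2a) to -0.01 (Cdkn1b). Of 29 genes of G2 and mitosis 0 passed at 5 h in limma (5 at an unadjusted p under 0.05). By sign 27 were below 0 at 5 h (median -0.11), as were 11043 of all 19938 genes. With the replicate block 10 were lower and 0 higher, where 10% and 8.22% of all genes were. At 16 h the median of that list was 0.11, with 17 genes above 0 and 12 below, where 43.8% of all genes were above 0.

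**Figure D4:**
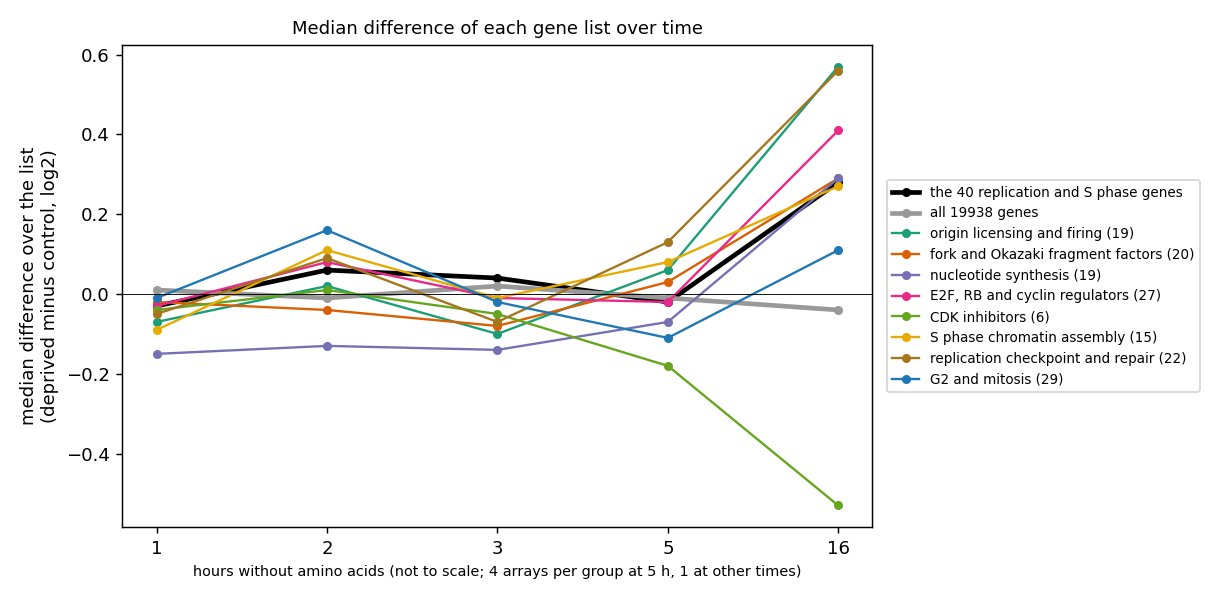
Median difference of each gene list at 1, 2, 3, 5 and 16 h (deprived minus control, log2), with the number of genes in the key. The 40 genes reach 0.28 at 16 h, between the medians of G2 and mitosis (0.11) and of origin licensing and firing (0.57). The 6 measured CDK inhibitors reach -0.53 and all genes -0.04.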

How the data were processed

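RNA (250 ng per sample) from 16 samples was run on whole-transcript arrays. The authors' values, deposited as log2, came from RMA, per the submitters' processing notes, which also name limma; versions and settings are not given in the sources used here. Of its 35556 rows, 21789 carry 1 gene symbol in the platform annotation, 1621 several and 12146 none; symbols were updated through Entrez identifiers (21698 matched), and the row with the highest mean was kept for each of 19938 genes. No further normalization was applied.

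The 8 arrays of 5 h, 4 per group, entered limma 3.58.1 (R 4.3.3; moderated two-sided test with adjustment by Benjamini-Hochberg over all genes at 0.05). The mean over 1, 2, 3 and 16 h was tested with time as a factor, as was the difference between 5 h and the other times on all 16 arrays. Single-array times were otherwise described from an absolute difference of 0.5. With all 4 numbers, same-number arrays at 5 h deviated together (correlations 0.354, 0.584, 0.467 and 0.896). Same numbers were therefore taken as pairs, in a fit with a replicate block. Among numbers 1 to 3 alone the correlations were 0.193, -0.003 and -0.2, so the pairing rests on the arrays numbered 4. The labels do not say what the numbers mean. Other alternatives were quantile normalization, the mean of a gene's rows, centring on array medians, a filter at the median level, a trended and robust prior, a minimum of 1, each array or time left out, and both arrays numbered 4 left out. Fits were tested on simulated data.

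The members and lists were chosen with earlier results of these data known. Named with full values are the genes of the 40 past the threshold at 5 h and the 8 with the largest difference at 16 h, and of each other list up to 4 past the threshold and up to 2 with the largest difference at 16 h; genes that passed only with the block were described as part of accounting for all 40. Python 3.11.15, pandas 2.3.3, numpy 2.4.6 and matplotlib 3.10.9 were used. List genes whose rows carry several symbols or none were not analysed here.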

Additional observations from a re-analysis of the deposited data

Results flagged for a closer look

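Within the groups of 4 arrays at 5 h, 1 array stood far from the other 3 in 21 of 80 groups (40 genes, control and deprived), where chance gives about 1 in 20. In all 21 it was an array numbered 4. In control cells array 4 was far above the rest for Mcm6 (11.45), Mcm7 (12.02), Rfc2 (9.77), Rfc4 (11.74), Pola1 (9.53), Pold1 (9.81), Cdc45 (10.17), Gins1 (8.88), Rrm1 (12.14) and Rpa2 (10.20). In deprived cells it was far above the rest for Mcm3 (10.88), Mcm6 (11.57), Rfc3 (10.93), Rfc4 (11.94), Rfc5 (12.16), Pole (11.01), Pole2 (9.94), Prim1 (10.57), Gins1 (9.32) and Fen1 (9.32). Ccne1 went the other way, with deprived array 4 far below the rest (8.38). The flags of different genes share these arrays and are not independent.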

How the results depend on the processing

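At 5 h, the 481 genes called higher and 339 called lower became 1639 and 1993 with the replicate block and 1265 and 1430 without both arrays numbered 4, and quantile normalization gave 553 lower. Leaving out each 5 h array in turn gave 250 to 624 higher and 132 to 442 lower. Of the 40 genes, 1 was called higher and 2 lower; the replicate block gave 8 and 4, leaving out both arrays numbered 4 gave 5 and 4, centring gave 1 lower, and leaving out each array gave 0 to 1 higher and 1 to 2 lower, with the median between -0.07 and 0.07. For the mean over 1, 2, 3 and 16 h, leaving out each time gave 0 to 10 genes higher and 0 to 25 lower, and adding the 5 h arrays gave 578 and 459 genes, with 1 and 2 of the 40. Without both arrays numbered 4, 2 genes differed upward between 5 h and the other times. A minimum of 1 left 0 and 0 genes of the 40 at 3 h and 2 higher and 0 lower at 16 h. Centring gave 15 higher and 1 lower at 16 h with a median of 0.37, and quantile normalization gave a median of 0.10 at 3 h. Over single genes of the 40, 1044 results kept their side of the threshold, 21 gained the call and 13 lost it. The sign of the difference changed in 42 of these 1078 results, with 0 of the 42 past the threshold in either fit (Tyms at 5 h was -0.03, and 0.03 without both arrays numbered 4). These counts include results that could not move. The replicate block, the trended prior and the level filter leave the difference itself unchanged, so no sign could change there. Outside the fits at 5 h no gene of the 40 passed in the main fit, so no call could be lost there. Array number limits precision, and the 16 h differences rest on 1 array per group.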
